A study of Mus musculus with 2 samples.

Results

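The cells described here are 523 B16 F10 mouse melanoma cells that were sorted as high pigment and that the authors' cell table places in cluster 3. They were chosen by those 2 columns of the table and make up 24.5% (22.7–26.4, exact Clopper-Pearson 95% interval) of the 2136 high pigment cells and part of the 4036 cells in all. The study grew the line for 7 days at 100 cells per cm2 in high-glucose medium with 10% fetal bovine serum. It then sorted the cells by the side scatter of a flow cytometer into a low and a high pigment fraction. No genotype or treatment beyond this is given for either fraction, and the cells come from 1 line. Each fraction gave 1 single-cell library, so nothing below could be checked in a second culture and no test was made. Cluster 3 was drawn by the authors from the expression of the same cells, so every gene in it counts as used, and all values below are a description.

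The cluster 3 High cells are set beside the other 1613 high pigment cells, of which 1520 lie in cluster 0, 48 in cluster 1 and 45 in cluster 2. They are also set beside the 1023 low pigment cells of cluster 1, most of which are in G1 too. The 822 low pigment cells of cluster 2, which are mostly in S, G2 or M, and the 19 low pigment cells of cluster 3 are given for orientation. The first comparison lies within 1 library. In the second, sort, library and cluster change together and cannot be told apart. Both comparisons share the cluster 3 High cells, so their values stand side by side without being counted as separate evidence.

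Melanocytes and the melanomas that come from them make melanin in melanosomes, organelles related to lysosomes. The transcription factor MITF drives the melanin genes and also genes of survival and of the cell cycle. G1 is the stretch of the cell cycle before DNA synthesis, in which cyclin-dependent kinases are held back by inhibitors such as p21, the product of Cdkn1a, a gene that p53 switches on. The other 3 markers attached to this cluster are Mitf itself, Lgals3, which encodes the sugar-binding protein galectin-3, and Hmox1, whose enzyme breaks down heme.

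The cluster 3 High cells were small in RNA. Their median was 9606 UMIs (unique molecular identifiers, one per captured RNA molecule) and 3084 genes per cell, against 13574 UMIs and 3784 genes in the other High cells and 14204 UMIs and 3917 genes in the cluster 1 Low cells. The table keeps only barcodes of at least 7500 UMIs, and the 10th percentile of the cluster 3 High cells was 7898 UMIs, close to that limit. The same limit left the 10th percentile of the other High cells at 9432 UMIs. Shallower cells of the same kind may have been left out by it, so the share of 24.5% holds for the cells kept. The mitochondrial percentage of UMIs had a median of 5.84% in cluster 3 High, 4.86% in the other High and 5.78% in the cluster 1 Low cells. No barcode sequence of the cluster 3 High cells occurred among the low pigment cells that were kept, and barcodes left out were not searched. Summed over cells, the groups held 5368476, 23480215 and 15502793 UMIs. Levels below are in CPM, the UMIs of a gene scaled to the summed UMIs of its group. They are shares of the RNA captured, so a gene can be higher in CPM and not in UMIs per cell.

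By the authors' phase calls, 466 of the 523 cells were in G1 (89.1%, 86.1–91.6), 54 in G2 or M (10.3%, 7.85–13.3) and 3 in S (0.574%, 0.118–1.67). G1 held 15% of the other High cells, 70.3% of the cluster 1 Low cells and 0.365% of the cluster 2 Low cells. Calls made anew, with every cell thinned to 7500 UMIs, put 363 cells (69.4%, 65.3–73.3) in G1, 155 in G2 or M and 5 in S, against 3.53% of the other High cells and 57.0% of the cluster 1 Low cells in G1. The rank of the groups was the same under both callers. Phase calls read genes that the clustering also used.

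**Figure D1:**
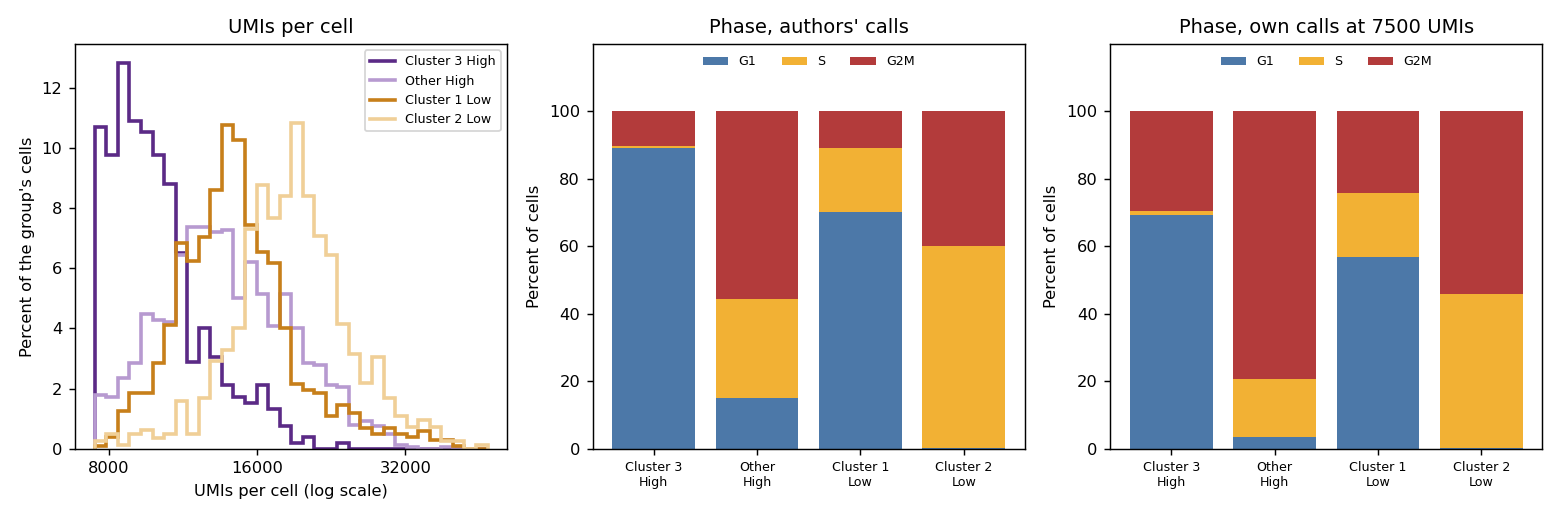
Left, distribution of UMIs per cell on a log scale as a percent of each group's cells. Middle and right, percent of cells called G1, S and G2M by the authors and by calls made after thinning to 7500 UMIs. The cluster 3 High cells pile up at the low end of depth, and G1 holds 89.1% of them by the authors' calls and 69.4% by the other.

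The label of the cells as melanocytes was checked against marker lists. All 7 melanocyte markers (Mitf, Sox10, Dct, Tyrp1, Tyr, Pmel and Mlana) were detected in every group, with a summed level of 14935 CPM in the cluster 3 High cells, 14686 in the other High cells and 11848 in the cluster 1 Low cells. Fibroblast markers summed to 12 UMIs over all 523 cells and leukocyte markers to 2, while keratinocyte and erythroid markers were at 0. Of the endothelial markers Pecam1 alone gave more than 1 UMI, with 3.91 CPM against 21.3 CPM in the cluster 1 Low cells, and Cdh5, Tek and Emcn were at 0. The 5 Schwann cell markers summed to 438 CPM in the cluster 3 High cells, 356 in the other High cells and 445 in the cluster 1 Low cells, mostly S100b, which melanocytes also express.

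The 4 markers did not all set the cluster apart from the other High cells. Mitf (chromosome 6, 97807052 to 98021349, plus strand, mm10) had 667 CPM in the cluster 3 High cells, 469 in the other High cells, 249 in the cluster 1 Low cells and 190 in the cluster 2 Low cells. Its ratio was 1.42 (1.37–1.48, exact conditional binomial 95% interval) against the other High cells and 2.68 (2.56–2.80) against the cluster 1 Low cells. Lgals3 (chromosome 14, 47367751 to 47386160, plus strand) had 827, 667, 301 and 278 CPM in the same order, with ratios of 1.24 (1.20–1.28) and 2.74 (2.63–2.86). Of these 4 groups, the cluster 3 High cells had the highest level of both. Most of their distance from the low pigment cells of clusters 1 and 2 was shared by the other High cells. Hmox1 (chromosome 8, 75093621 to 75100589, plus strand) had 336, 281, 138 and 114 CPM, with ratios of 1.20 (1.13–1.26) and 2.42 (2.28–2.58). Its place against the other High cells turned among G1 cells, with log2 ratios of −0.14 by the authors' calls and −0.54 by the calls after thinning. Cdkn1a (chromosome 17, 29090976 to 29100727, plus strand) had 335 CPM in the cluster 3 High cells, 486 in the other High cells, 172 in the cluster 1 Low cells and 309 in the cluster 2 Low cells. It was thus lower than in the other High cells, with a ratio of 0.689 (0.655–0.724), and higher than in the cluster 1 Low cells, with a ratio of 1.95 (1.84–2.07). The data go against Cdkn1a as a marker of cluster 3 among the high pigment cells. In the low pigment library too, the mostly G1 cluster 1 had less of it than cluster 2 (ratio 0.556).

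Counted as UMIs per cell and not as a share of the RNA, none of the 4 stood above the other High cells. The ratio of mean UMIs per cell was 1.00 for Mitf, 0.874 for Lgals3, 0.843 for Hmox1 and 0.486 for Cdkn1a. Against the cluster 1 Low cells it was 1.81, 1.86, 1.64 and 1.32. These values cross libraries, so any difference in depth between the libraries enters them, and its part was not tested. At 7500 UMIs per cell the median cluster 3 High cell had 4 Mitf UMIs, with a 10th percentile of 1 and a 90th of 10, and 34 of the 523 cells (6.50%) had none. The median was 3 in the other High cells, 1 in the cluster 1 Low cells, and 10.5% and 24.2% of these cells had none. Lgals3 was the most uneven of the 4, from 0 to 62 UMIs with a median of 4 and a 90th percentile of 15, and 66 cells had none.

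**Figure D2:**
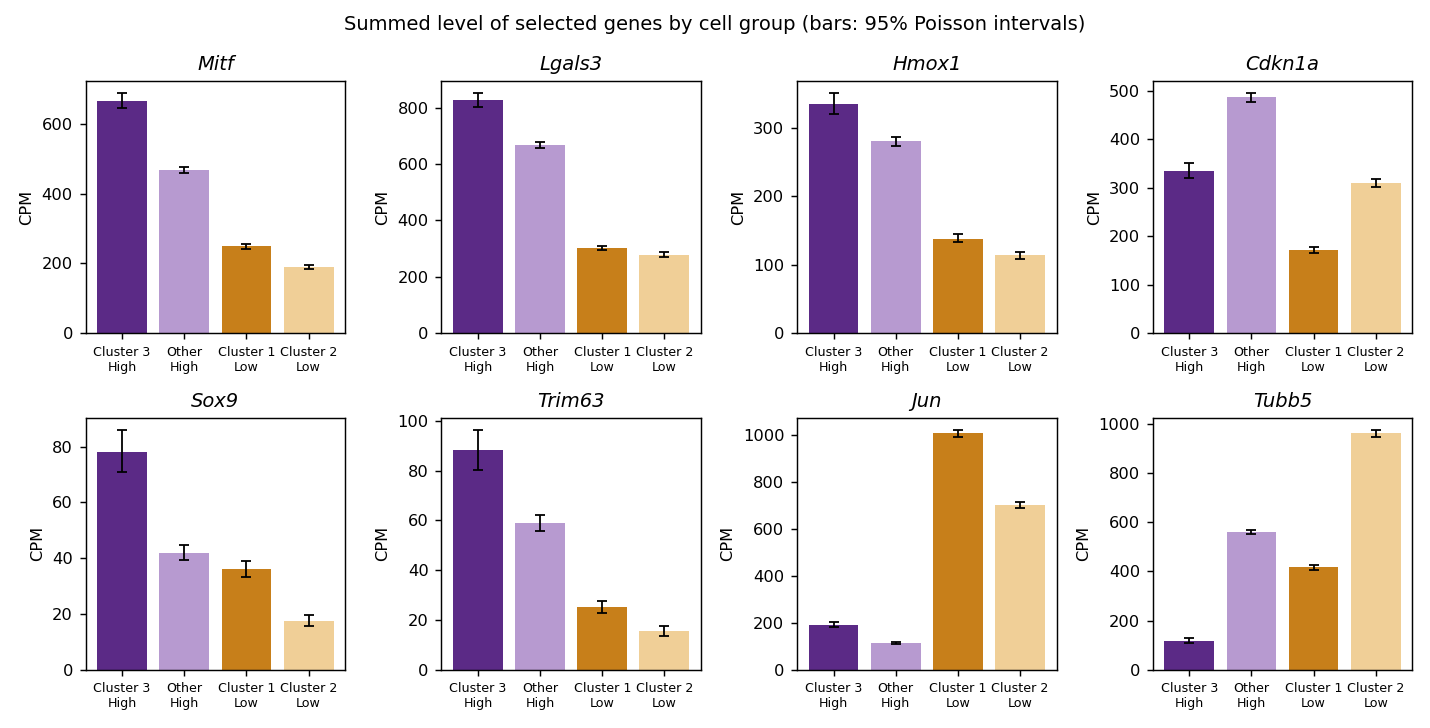
Summed level in CPM of 8 genes in 4 cell groups, with bars that start at 0 and exact Poisson 95% intervals that cover counting error only. Mitf, Lgals3, Hmox1, Sox9 and Trim63 are highest in the cluster 3 High cells, Cdkn1a is highest in the other High cells, Jun in the cluster 1 Low cells and Tubb5 in the cluster 2 Low cells.

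Promoters of 4 genes are shown because these genes stand on opposite sides of the comparison with the cluster 1 Low cells, or are markers of the cluster, and carry letters that known regulators of these genes read. They are the 250 bases before a start site, from RefSeq on GRCm38.p6, the build also called mm10. Capitals mark TGACGTCA, the cyclic AMP response element, in Mitf at chr6:97991533-97991782 (plus strand, the last of its 3 start sites in the table). They mark both copies of CATGTG, the core of the M-box that MITF reads, in Trim63 at chr4:134314870-134315119 (plus strand). In Dusp1 at chr17:26508473-26508722 (minus strand) they mark TGACGTCA and CACGTG, an E-box, and in Cdkn1a at chr17:29090729-29090978 (plus strand) the paired CATG cores of a p53 site, 6 bases apart.
Mitf: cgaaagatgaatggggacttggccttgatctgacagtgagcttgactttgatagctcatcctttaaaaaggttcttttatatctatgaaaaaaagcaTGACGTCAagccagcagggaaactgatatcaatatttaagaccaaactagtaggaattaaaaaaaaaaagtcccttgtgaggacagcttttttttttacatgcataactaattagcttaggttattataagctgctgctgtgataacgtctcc
Trim63: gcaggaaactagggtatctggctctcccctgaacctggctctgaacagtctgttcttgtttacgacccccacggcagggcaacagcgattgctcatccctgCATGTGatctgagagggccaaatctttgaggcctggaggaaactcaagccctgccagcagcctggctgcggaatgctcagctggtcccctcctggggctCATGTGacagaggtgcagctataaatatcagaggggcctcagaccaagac
Dusp1: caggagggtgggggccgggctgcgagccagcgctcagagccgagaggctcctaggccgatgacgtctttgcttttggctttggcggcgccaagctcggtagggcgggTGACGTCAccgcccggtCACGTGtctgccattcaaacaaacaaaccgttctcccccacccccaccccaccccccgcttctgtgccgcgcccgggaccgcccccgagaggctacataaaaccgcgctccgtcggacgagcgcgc
Cdkn1a: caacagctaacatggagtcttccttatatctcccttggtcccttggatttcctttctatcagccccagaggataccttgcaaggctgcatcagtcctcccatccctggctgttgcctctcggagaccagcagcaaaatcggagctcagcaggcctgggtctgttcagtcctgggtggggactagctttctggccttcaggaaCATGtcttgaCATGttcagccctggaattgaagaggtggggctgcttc
Of all 32851 promoter windows of this length in the table, searched on both strands, TGACGTCA occurred in 1.55%, CACGTG in 6.02%, CATGTG in 12.3% and the CATG pair in 0.49%. Some genes have several windows. Counted by gene, with a match in any window, the shares were 1.77%, 6.86%, 13.8% and 0.57% of 27025 genes. The matches below are counted by gene. Of the 12 genes with the largest ratio against the cluster 1 Low cells, 8 were in the table, and TGACGTCA occurred in Mitf, CACGTG in Pakap and CATGTG in Ppargc1a and Trim63. Of the 12 with the smallest ratio, 9 were in the table, and TGACGTCA occurred in Btg2 and Dusp1, CACGTG in Dusp1 and CATGTG in Ier5. TGACGTCA thus stood before genes on both sides of the comparison. These matches describe letters and were not tested as sites.

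Against the other High cells, the cluster 3 High cells had less RNA of nearly every gene of DNA synthesis and mitosis. They had more of several immediate early transcription factors, though not among cells called G1 after thinning, of protein folding genes of the endoplasmic reticulum and of some mitochondrially encoded genes. A gene counted as measured at a mean of 10 CPM or more. Among 7621 measured genes, 160 (2.1%) had a level in the cluster 3 High cells 1.5-fold or more above that of the other High cells, and 364 (4.78%) a level 1.5-fold or more below it. With a minimum of 2 CPM the counts were 516 higher and 667 lower, and 43.6% of the counted genes were higher in place of 30.5%. For gene lists the limit was a log2 ratio of 0.32, which 13.9% of measured genes passed upwards and 10% downwards. Over all measured genes the middle log2 ratio was 0.06.

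The strongest differences were in genes of mitosis. Top2a, the topoisomerase that untangles DNA before division, had 31.7 CPM in the cluster 3 High cells, 318 in the other High cells, 66.2 in the cluster 1 Low cells and 444 in the cluster 2 Low cells. Nusap1 and Prc1, which bind spindle microtubules, had 9.31 and 20.7 CPM against 95.7 and 207 in the other High cells. The mitotic kinase gene Cdk1 had 20.5 against 129 CPM, and the ubiquitin-conjugating enzyme gene Ube2c 64.1 against 339. Of the 52 measured genes of the G2 and M list 49 were lower and 0 higher (median log2 ratio −1.23). The 3 within the limit were Ccnb2, Anp32e and Gas2l3. Of the 39 measured S phase genes 38 were lower and 0 higher, with a median of −1.12. Rad51ap1 of DNA repair had 8.57 against 80.4 CPM, and Mcm3 and Mcm5 of the replicative helicase 55.1 against 140 and 38.0 against 81.4. The tubulin gene Tubb5 had 118 CPM against 560 in the other High cells, 418 in the cluster 1 Low cells and 961 in the cluster 2 Low cells. Both phase lists are close to the genes behind the phase calls, and the tubulin and histone families have near copies, so their counts are uncertain.

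Immediate early genes, which respond within minutes to growth factors and stress, were higher than in the other High cells. Of 17 measured members 11 were higher and 1 lower (median log2 ratio 0.45). Jun had 191 CPM in the cluster 3 High cells, 114 in the other High cells, 1006 in the cluster 1 Low cells and 701 in the cluster 2 Low cells, a ratio to the other High cells of 1.67 (1.56–1.80). Nr4a1 had 62.8 against 36.5 CPM, Sik1 35 against 17.3 and Ccn2, a secreted matrix protein gene, 27.6 against 10.3. Btg2, an antiproliferative gene that p53 also drives, was the member that was lower, with 20.5 against 33.4 CPM. Outside that list, the nuclear receptor gene Nr4a2 had the largest ratio of all genes with a mean of at least 50 CPM, 116 against 48.9 CPM, a ratio of 2.38 (2.15–2.62). Fosl2, an AP-1 subunit, had a ratio of 1.93 (1.74–2.14) and Klf6, a zinc finger member of the list, one of 1.77 (1.62–1.93). At 7500 UMIs per cell, the percentage of UMIs that fell on the list had a median of 0.107% in the cluster 3 High cells and 0.0667% in the other High cells. Of the cluster 3 High cells 68.1% (63.9–72.0) lay above the latter. The direction turned with the choice of cells: among cells called G1 after thinning, 363 against 57, the median log2 ratio of the list was −0.30, with Jun at −0.40 and Nr4a2 at −0.18. Of those 57 cells 38 lay in cluster 0.

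Sox9, a transcription factor of the neural crest and of less differentiated melanoma cells, had 78.2 CPM in the cluster 3 High cells, 41.9 in the other High cells, 36.1 in the cluster 1 Low cells and 17.6 in the cluster 2 Low cells. It was the gene with the second largest ratio to the highest of the other groups, 1.84 to cluster 0 High, among genes of at least 50 CPM. At 7500 UMIs per cell 318 of the 523 cells (60.8%) had no Sox9 UMI and the highest had 8, against 75.1% without one in the other High cells. Of the 12 genes of the dedifferentiated melanoma list only 4 were measured, of which Sox9, Jun and Ccn2 were higher and Tcf4 was within the limit. Axl of that list had 5.4 CPM, and Ngfr, Egfr, Wnt5a and Sox2 had 0 UMIs in the cluster 3 High cells.

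Genes of the unfolded protein response, which answers misfolded proteins in the endoplasmic reticulum, were higher than in the other High cells. Of 19 measured members 11 were higher and 0 lower (median log2 ratio 0.39). Hspa5, the chaperone BiP, had 962 CPM against 671 in the other High cells and 1290 in the cluster 1 Low cells. Hsp90b1, the chaperone GRP94, had 900 against 614 and 949 CPM, and the disulfide isomerase gene Pdia4 had 179 against 117 and 206. The cluster 3 High cells lay between both groups for these genes. Per cell, the list held a median of 0.467% of UMIs, against 0.347% and 0.547%. Of the ATF4 targets, another stress list, 1 of 22 was higher and 5 were lower, with Trib3 at 48.4 against 68.9 CPM and Atf5 at 64.8 against 90.6.

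The 13 mitochondrially encoded genes had a median log2 ratio of 0.32, with 5 higher and 0 lower. The complex I subunit gene mt-Nd5 had 742 CPM against 523 in the other High cells and 774 in the cluster 1 Low cells. The share of these genes went down with depth within the cluster (Spearman rho −0.28 over 523 cells of 1 library, a description), and the cluster 3 High cells were the shallower group. The part of depth in this difference was not tested. None of 42 measured nuclear genes of oxidative phosphorylation passed the limit in either direction, nor did any of 32 ribosomal protein genes.

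The melanin genes differed little between the high pigment groups. Of 16 measured members 4 were higher and 0 lower (median log2 ratio 0.17). The 4 were Tyr, which encodes the rate-limiting enzyme of melanin synthesis, Mc1r, the receptor for melanocyte-stimulating hormone, the melanosomal receptor gene Gpr143 and the channel gene Trpm1. Tyr had 162 CPM in the cluster 3 High cells, 113 in the other High cells, 139 in the cluster 1 Low cells and 112 in the cluster 2 Low cells, a ratio to the other High cells of 1.44 (1.33–1.55). Among cells called G1 after thinning, Gpr143 and Mc1r were lower in cluster 3, with log2 ratios of −0.15 and −0.062, while Tyr had one of 0.36. Among the abundant members, Ptgds had a log2 ratio of 0.21, within the limit, and of −0.042 among cells called G1 after thinning. Several other abundant members were nearly level between the high pigment groups. Dct, the dopachrome tautomerase gene, had 7841 against 8049 CPM, Tyrp1 2381 against 2264, Mlana 2276 against 2304 and the fibril protein gene Pmel 1411 against 1257. Over the settings tried, the log2 ratio of Pmel ran from 0.074 to 0.56, past the limit at its highest. Those of Dct, Tyrp1 and Mlana stayed within the limit. The median cell gave 1.97% of its UMIs to the list in the cluster 3 High cells, 1.91% in the other High cells, 1.56% in the cluster 1 Low cells and 1.37% in the cluster 2 Low cells. Of the melanosome transport genes 5 of 16 were higher. Among them were the motor gene Myo5a, with 231 against 172 CPM, and Sytl2, with 53.1 against 37.1.

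Among the lineage factors Mitf and Tfe3 were higher, while Sox10, which switches Mitf on, had 195 against 229 CPM and a ratio of 0.853 (0.798–0.912). Among cells called G1 after thinning, the log2 ratio of Sox10 was 0.12. Pax3 had 261 against 272 CPM. Lysosome genes (7 of 29 higher, 0 lower) and autophagy genes (7 of 20 higher, 0 lower) leaned the same way, with Atp6v1h of the proton pump at 123 against 89.7 CPM and the autophagy receptor gene Optn at 76.0 against 54.0. Spp1, which encodes osteopontin, had 312 CPM against 216 in the other High cells and 192 in the cluster 1 Low cells. The hexokinase gene Hk2 had 161 against 111 CPM, with 4 of 20 glycolysis genes higher and 0 lower. These shares are to be read against the 13.9% of all measured genes that passed the limit upwards.

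The list of CDK inhibitors and cell cycle exit was split, with 4 higher and 8 lower of 19 measured. The cyclin genes Ccnd2 and Ccnd1, which start G1 progress, had 356 against 261 and 189 against 149 CPM, and the forkhead factor gene Foxo3 28.7 against 21.4. Among cells called G1 after thinning, both cyclin genes were lower in cluster 3, with log2 ratios of −0.21 for Ccnd2 and −0.46 for Ccnd1. Besides Cdkn1a, the inhibitor genes Cdkn2c and Cdkn2d were lower, with 11.5 against 25 and 18.6 against 42.9 CPM, and Cdkn1b (p27) had 49.9 against 53.3. No UMI of Cdkn2a or Cdkn2b was found in any of the groups. Of the 15 measured p53 targets 2 were higher and 5 lower, with Phlda3 at 243 against 315 CPM and Mdm2 at 121 against 139.

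**Figure D3:**
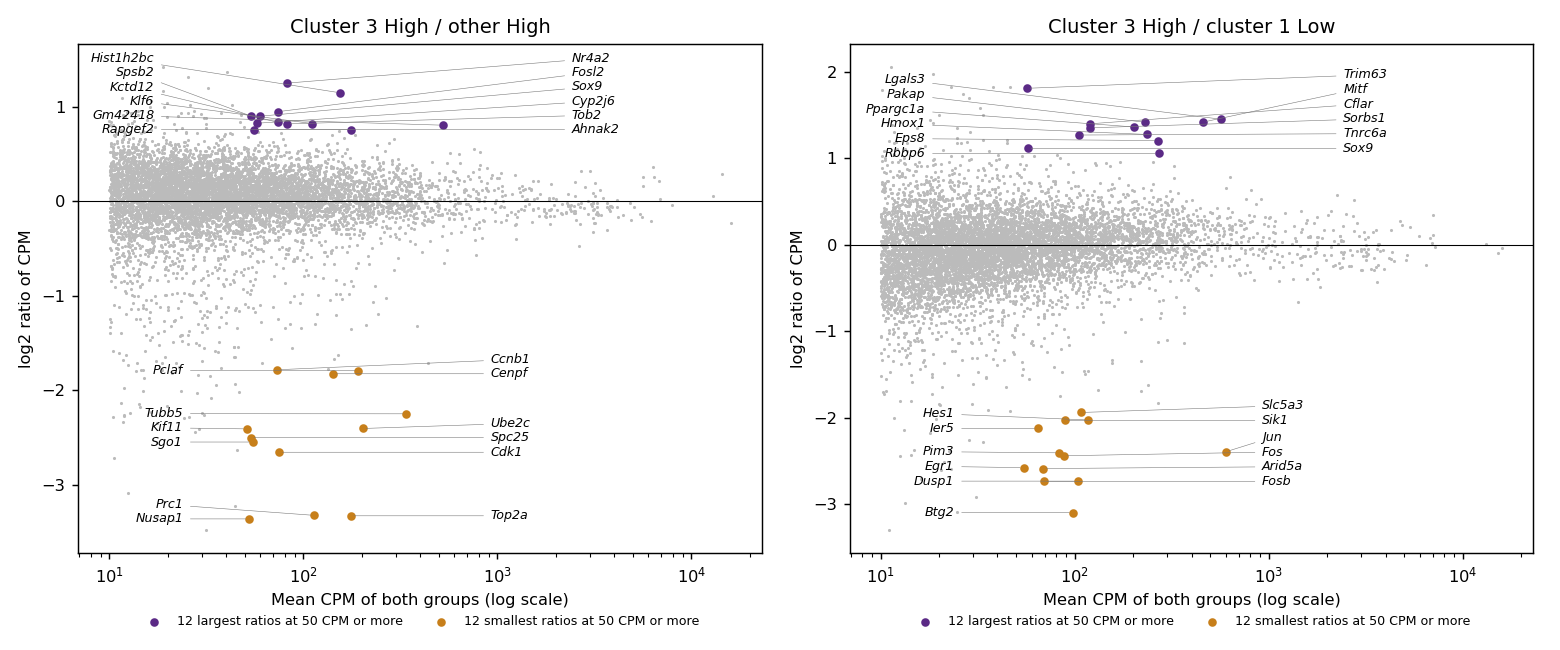
Ratio of CPM on the log2 scale against the mean CPM of both groups (log scale) for all genes at 10 CPM or more, cluster 3 High over the other High cells (left) and over the cluster 1 Low cells (right). Named points are the 12 largest and the 12 smallest ratios among genes of at least 50 CPM: genes of mitosis are lowest on the left, immediate early genes are lowest on the right.

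Since the other High cells are mostly in S, G2 or M, the comparison was repeated among cells that the authors call G1, 466 in cluster 3 and 242 elsewhere in the high pigment library. Then 706 genes were higher and 243 lower at 1.5-fold, so 74.4% of the counted genes were higher in place of 30.5%, and the median log2 ratio was 0.17. Of the 4 markers, Mitf and Lgals3 were higher, with log2 ratios of 0.90 and 0.34, and Hmox1 and Cdkn1a lower, with −0.14 and −0.56. At the limit for lists, 31.8% of all 7451 measured genes were higher and 8.75% lower, so a list's count of higher genes has to be read against a larger background here. The immediate early list had 7 higher and 1 lower of 17, a share of higher genes near that background, the unfolded protein response 13 higher and 0 lower of 20, and melanosome transport 10 higher and 0 lower of 15. The G2 and M list still had 36 lower of 49 and the S phase list 22 lower of 34, so cells called G1 were not alike in these genes. The depth gap was wider, with a median of 9626 UMIs against 15375.

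Against the cluster 1 Low cells, the cluster 3 High cells had several-fold less RNA of immediate early genes and less of most cholesterol synthesis genes. They had more of Mitf, Lgals3, Hmox1, Ppargc1a and Trim63. Among 7784 measured genes, 309 (3.97%) stood 1.5-fold or more above the cluster 1 Low level and 561 (7.21%) as far below it, around a middle log2 ratio of −0.03. At the limit for lists, 13% of measured genes were higher and 19.3% lower. Among G1 cells alone the counts were 303 and 568.

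Trim63, a ubiquitin ligase gene known from muscle and a target of MITF-family factors, had the largest ratio of the genes with a mean of at least 50 CPM. It had 88.1 CPM in the cluster 3 High cells, 58.9 in the other High cells, 25.1 in the cluster 1 Low cells and 15.6 in the cluster 2 Low cells, a ratio of 3.51 (3.06–4.03) to the cluster 1 Low cells. Cflar, which blocks apoptosis through caspase-8, had 174, 107, 65.9 and 43.0 CPM. Ppargc1a, the coactivator PGC-1α, which drives mitochondrial biogenesis in melanoma under MITF, had 293, 221, 114 and 83.6 CPM. All of these were ordered alike, with the cluster 3 High cells highest and the cluster 2 Low cells lowest. Sox10 was higher than in the cluster 1 Low cells, with 195 against 124 CPM. The lineage factors did not rise together, with 3 of 9 measured members higher, 1 lower and a median log2 ratio of −0.19. The lower one was Tfe3, with log2 ratios from −0.75 to −0.46 over the settings tried. The glutathione synthesis gene Gclm was also higher, with 422 against 224 CPM. Of 24 NRF2 targets, to which Hmox1 and Gclm belong, 5 were higher and 3 lower.

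Immediate early genes stood far below the cluster 1 Low cells, with 17 of 20 measured members lower, 2 higher and a median log2 ratio of −1.98. Btg2 had 20.5 against 175 CPM, 8.56-fold lower (7.07–10.5). Dusp1, whose product switches MAP kinases off, had 27.2 CPM in the cluster 3 High cells, 19.9 in the other High cells, 181 in the cluster 1 Low cells and 162 in the cluster 2 Low cells. Fos had 27.4, 20.5, 148 and 129 CPM, and Egr1 15.6, 17.6, 93.3 and 111 CPM. The gap thus ran between the libraries, and the cluster 3 High cells were on the high pigment side of it. The 2 higher members were Klf6, with 141 against 105 CPM, and Ccn2, with 27.6 against 21.9.

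Cholesterol synthesis genes were lower for 18 of 22 measured members and higher for 0, with a median log2 ratio of −0.74, whereas against the other High cells 4 were higher and 1 lower with a median of 0.00. Hmgcs1, which encodes an early enzyme of the pathway, had 38.4 CPM against 129. Its level in the other High cells was 29.3 CPM, nearer to that of the cluster 3 High cells.

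Both groups are mostly G1, and the mitotic genes were closer to each other. Of 49 measured G2 and M genes 15 were lower and 5 higher (median log2 ratio −0.08). The lean turned among cells that the authors call G1, with 5 of 40 lower and 10 higher and a median of 0.06. Gas2l3, which works at the end of cell division, had 109 against 52.7 CPM. Of 37 measured S phase genes 31 were lower and 0 higher, with a median of −0.62, for example Slbp, which binds histone mRNA in S phase, with 59.6 against 164 CPM. Among G1 cells alone 11 of 31 S phase genes were lower, with a median of −0.15, against 19.1% of all 7739 measured genes lower and 13.1% higher at the limit for lists. Against the same cells 6 melanin genes were higher and 1, Mc1r, was lower, with Dct at 7841 against 6180 CPM and Ptgds at 2701 against 1813. Interferon and class I genes had 6 of 11 lower and 0 higher.

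**Figure D4:**
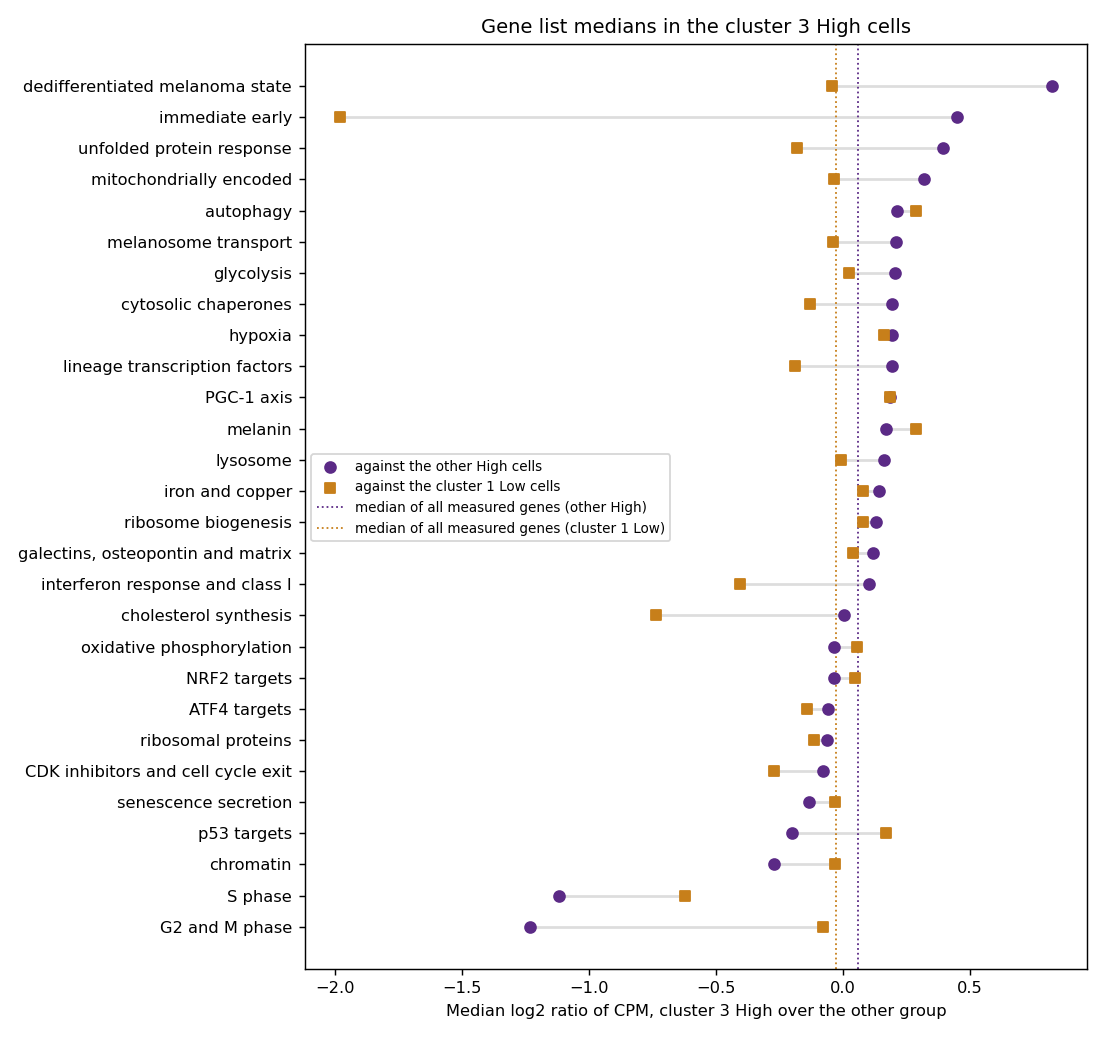
Median log2 ratio of the measured members of each gene list, cluster 3 High over the other High cells (circles) and over the cluster 1 Low cells (squares), with dotted lines at the medians of all measured genes. The immediate early list lies at 0.45 and −1.98, and the G2 and M list at −1.23 and −0.08.

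Taking the cluster 0 High, cluster 1 Low and cluster 2 Low cells together, 99 of 3007 genes (3.29%) lay above the highest of them by a log2 ratio of 0.32 or more, and 49 of 2648 (1.85%) as far below the lowest. Besides Sox9, Cflar and Trim63, the genes above included Plin2, which coats lipid droplets, with 138 CPM against 94.2 in the other High cells and 93.0 in the cluster 1 Low cells. They also included Fnip2, a partner of folliculin, with 73.2, 48.8 and 44.2 CPM, and the natriuretic peptide gene Nppb, with 72.8, 47.1 and 20.4 CPM. The genes below were led by Tubb5 and Top2a and included the tubulin gene Tuba1b, with 121, 300 and 197 CPM, and the chromatin protein gene Hmgb2, with 204, 669 and 351 CPM.

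The 54 cluster 3 High cells that the authors call G2 or M differed from the 466 in G1 beyond genes of mitosis. Cenpf and Mki67, genes of dividing cells, had 269 against 39.9 and 262 against 47.8 CPM, and 49 of 51 measured G2 and M genes were higher. At the same limit, 29.7% of all 7676 measured genes were higher in this split and 18.8% lower. Their median depth was about that of the others, 9049 against 9626 UMIs. Lgals3 had 174 CPM in them and 898 in the G1 cells, 5.15-fold lower (4.19–6.40), and was the gene with the smallest ratio of those of at least 50 CPM. At 7500 UMIs per cell the median was 1 Lgals3 UMI against 4, and 17 of 54 cells had none against 49 of 466. In the other groups the same split gave Lgals3 ratios of 0.831 (0.796–0.868) for the other High cells, 0.617 (0.556–0.682) for the cluster 1 Low cells and 0.669 (0.458–1.02) for the cluster 2 Low cells. The G1 side of the cluster 2 Low ratio is only 3 cells with 73472 UMIs, and its interval does not cover differences between cells. Hmox1 (0.466), Cdkn1a (0.515), Pakap (0.365) and Trim63 (0.426) were lower in the same 54 cells, while Mitf (1.19) and Dct (1.00) were not. Lgals3, Pakap and Trim63 were picked for this split after its values were seen. These cells gave 527386 UMIs from 1 library, and the difference between groups was not tested.

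Cluster 3 also held 19 low pigment cells, 1% of the 1900 in that library, with 260975 UMIs and a median of 12716 per cell. All 19 were called G1. They were placed in cluster 3 by their expression, so a likeness to the cluster 3 High cells comes in part from that choice. They therefore cannot set cluster and library apart, and their values are a description. For these cells 3 UMIs stand for 11.5 CPM. Lgals3 had 981 CPM in them, 301 in the cluster 1 Low cells and 827 in the cluster 3 High cells. Hmox1 had 383, 138 and 336 CPM, and Cdkn1a 448, 172 and 335. The ratios of the cluster 3 Low to the cluster 1 Low cells were 3.25 (2.86–3.69), 2.77 (2.24–3.38) and 2.61 (2.15–3.14), and the cluster 3 Low cells were above the cluster 3 High cells in all 3 markers. Mitf had 341 CPM in the cluster 3 Low cells, between 249 in the cluster 1 Low and 667 in the cluster 3 High cells. Jun had 671 CPM and Btg2 111 CPM in the cluster 3 Low cells, nearer to the 1006 and 175 of the cluster 1 Low cells than to the 191 and 20.5 of the cluster 3 High cells. Fos, with 7 UMIs or 26.8 CPM, was at the level of the cluster 3 High cells (27.4). The values of 19 cells can rest on a few of them.

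**Figure D5:**
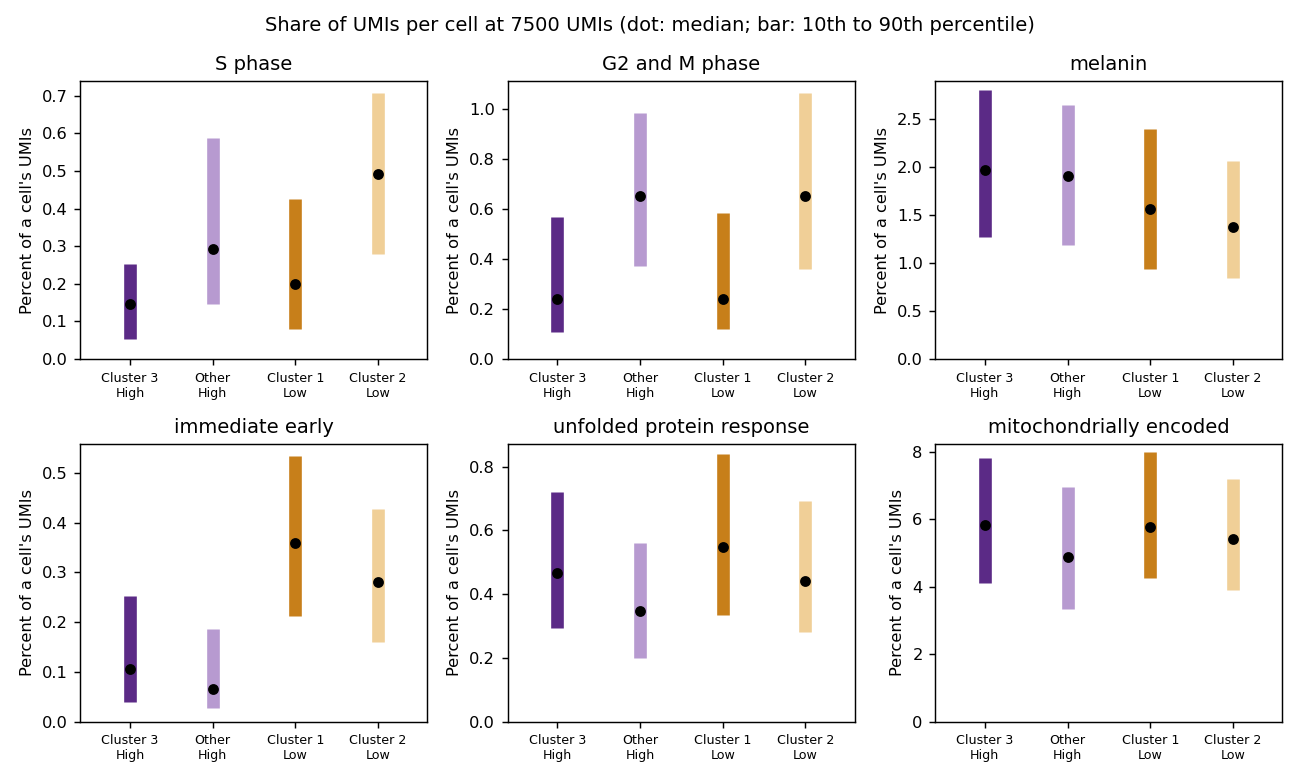
Share of each cell's UMIs that came from 6 gene lists, after thinning to 7500 UMIs (dot, median; bar, 10th to 90th percentile of cells; the axes start at 0). For the immediate early list the median of the cluster 3 High cells is 0.107% against 0.36% in the cluster 1 Low cells.

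The authors' deposited table holds a score per cell for 6 gene sets, whose genes the sources do not list. The median hMel_ProState1 score was 0.438 (SD 0.0431 over cells) in the cluster 3 High cells, 0.512 (SD 0.0323) in the other High cells and 0.459 (SD 0.0464) in the cluster 1 Low cells. The median hMel_MatState1 score was 0.674, 0.678 and 0.670. The median mHFmel_MatState1 score was 0.306 (SD 0.0329), 0.283 (SD 0.0316) and 0.296 (SD 0.0353), highest in the cluster 3 High cells. The median mHFmel_StemState1 score was 0.109, 0.0823 and 0.164, which placed the cluster 3 High cells between both groups. The median hMel_StemState1 score was 0.304, 0.297 and 0.331, and the median mHFmel_ProState1 score was 0.480, 0.527 and 0.484.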

How the data were processed

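Both B16 F10 libraries were made with 10x chemistry and, per the submitters' processing notes, processed with Cell Ranger 6.1.2 on mm10. The authors deposited a matrix of UMI counts for 5818 barcodes, and a table of 4036 cells with sort, cluster, phase, the percent of mitochondrial UMIs and a score for each of several gene sets, per the file headers. Every barcode of at least 7500 UMIs and under 10% mitochondrial UMIs is in that table, with 0 exceptions. No source states whether depth was equalised on aggregation. Of 40 symbols that occur more than once, the entry with the larger total was used.

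Counts were summed per cell group and scaled to CPM. Ratios have exact conditional binomial 95% intervals, levels exact Poisson and shares exact Clopper-Pearson ones. All cover counting error only, not differences between cells or cultures. With 1 library a sort there is no test. Genes were counted by size, at 1.5-fold for all genes and a log2 ratio of 0.32 for lists, and this step was tested on simulated data. The CPM that 3 counts stand for is given as a mark of depth, and no gene was left out by it. Phases were called with scanpy 1.11.5 after thinning to 7500 UMIs. Scrublet at an assumed rate of 0.06 marked 15 high pigment cells (0.702%) and 18 low pigment cells (0.947%) as doublets, 2 of them among the 523, and they were kept.

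The members, lists and tests were chosen with earlier results of these data known. Named genes are the 12 largest and 12 smallest ratios at a mean of 50 CPM in each comparison, the 12 genes furthest above or below all 3 other groups, the leading members of each list and the 4 markers. The melanin, lineage, CDK inhibitor and p53 lists could also be named in full, and Cdkn1b and Pax3 come from them. Others, such as Axl and the genes of the phase split, were chosen after their values were seen. Genes with near-identical copies and overlapping genes are uncertain. Coordinates are from the mm10 annotation and promoters from RefSeq on GRCm38.p6.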

Additional observations from a re-analysis of the deposited data

How the results depend on the processing

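No paired analysis was possible because each sort gave 1 library, and no library could be left out. Against the other High cells, a minimum of 2 CPM gave 516 genes above and 667 below the limit, and one of 50 CPM gave 35 and 91, since other genes are then counted. Among cells called G1 by the authors 706 were higher, and among cells called G1 after thinning, a choice made after seeing the data, 616 were higher and 521 lower. Against the cluster 1 Low cells these minimums gave 680 and 1328, and 84 and 113. The share of cluster 3 High cells in G1 was 69.4% by own calls after thinning and 69.6% without thinning. Of genes and lists past the limit for lists, every turn of direction came from restricting both sides to G1 cells, and the cause was not tested. Against the other High cells with the authors' calls, log2 ratios were −0.12 for Bnip3, −0.13 for Dusp1, −0.10 for Fos and 0.014 for Trib3. With the calls after thinning they were −0.46 for Ccnd1, −0.21 for Ccnd2, −1.40 for Dusp1, −1.66 for Fos, −0.15 for Gpr143, −0.41 for Hmgcs1, −0.40 for Jun, −0.062 for Mc1r, −0.33 for Nr4a1, −0.18 for Nr4a2, −0.45 for Sik1 and 0.48 for Trib3. The median of the immediate early list was then −0.30 and that of the dedifferentiated melanoma list −0.041. Against the cluster 1 Low cells, log2 ratios were 0.50 and 0.25 for Nusap1, 0.043 and 0.0042 for Prc1 and 0.42 and 0.53 for Ube2c, with the authors' calls and with those after thinning. Of the log2 ratios of named genes under an alternative, 656 moved by less than their interval, 148 by more and 16 turned against the other High cells, and 752, 72 and 6 against the cluster 1 Low cells. The minimums of 2 and 50 CPM cannot move a gene's own ratio. Under each of them, 82 of the 656 and 83 of the 752 were therefore unmoved by construction. The 16 and 6 cover genes past the limit for lists. Of named genes within it whose interval excludes a ratio of 1, 8 (Anp32e, Ero1l, Gas2l3, Hmox1, Malat1, Ptgds, Sox10 and Tcf4) also changed sign against the other High cells, under 1 or both restrictions to G1 cells. Depth limits the 19 cluster 3 Low cells most, where 3 UMIs stand for 11.5 CPM.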

Other observations

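Some genes were spread unevenly over the 523 cluster 3 High cells. At 7500 UMIs per cell the median variance-to-mean ratio of 3010 genes was 1.11 and the 95th percentile 1.88. The ratio was 41.2 for Malat1, a nuclear long noncoding RNA, against 20.2 in the other High cells and 18.0 in the cluster 1 Low cells. It was 7.40 for Ero1l, an oxidase of the endoplasmic reticulum that hypoxia switches on, against 2.80 and 1.15. Ero1l reached 10 UMIs or more in 10 of 523 cells (1.91%, 0.921–3.49), in 15 of 1613 other High cells (0.930%), in 1 of 822 cluster 2 Low cells (0.122%), in 2 of 19 cluster 3 Low cells (10.5%, 1.30–33.1) and in 0 of 1023 cluster 1 Low cells, which allows a share of up to 0.360%.

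Cck, which encodes the peptide hormone cholecystokinin, had the largest ratio to the highest of the other groups, 1.87, but a UMI of it was found in 26 of the 523 cells, and the top 5 cells held 65.5% of its UMIs. Over the 523 cells of 1 library, Spearman's rho with Ero1l was 0.283 for Lgals3, 0.233 for Pgk1 and 0.233 for Bnip3, against a 99th percentile of 0.163 over genes, as a description. These genes were chosen after their values were seen.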
